A study of Mus musculus with 11 samples.

Results

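Solute carriers are a large superfamily of membrane transporters, named Slc in mouse by a family number, the letter a and a member number. The genes described here were those whose mouse symbol has that form, left out 10 hexose, cationic amino acid, cystine and iron carriers (Slc2a1, Slc2a3, Slc2a5, Slc2a6, Slc7a1, Slc7a2, Slc7a11, Slc11a1, Slc11a2 and Slc40a1). They were selected on measured values, with a mean of at least 1 TPM, the deposited level scaled for gene length and library, in at least 1 of the 3 groups. This gave 174 genes of the 16894 in the table, out of 296 with such a symbol, of which 112 lay under the floor. Just inside it were Slc7a14 at 1.05 TPM, Slc5a11 at 1.07 TPM and Slc16a9 at 1.18 TPM in their highest group, and just outside it were Slc25a53 at 0.953 TPM, Slc39a2 at 0.800 TPM and Slc26a1 at 0.788 TPM. In all 3 groups 138 genes reached the floor, 22 did so in 2 groups and 14 in 1 group. A gene that entered through a single high group had to differ from the others, so counts over the set are descriptions and not support for a difference.

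The 11 libraries held RNA of microglia, the resident macrophages of the brain, from mice. All groups share the Cx3cr1-GFP genotype, a fluorescent reporter in the fractalkine receptor gene that microglia express. The groups were 4 libraries of transplanted microglia (TP), purified by cell sorting 3 months after transplantation, 3 libraries of primary microglia grown in culture (PMG) and 4 libraries of sorted resident microglia (Res). The question of the series was how far TP cells adopt the expression programme of naive microglia, with PMG and Res as the comparisons. The protocol given for every library describes PLX3397 in the chow (600 mg/kg) for 3 depletion cycles. PLX3397 blocks Csf1r, the growth factor receptor that keeps microglia alive. The labels do not say whether the Res animals were treated, where the transplanted cells came from, or whether replicates were separate animals or cultures. The p-values therefore measure the spread between these libraries, which may be technical. Libraries held 18692721 to 19761208 expected counts in TP, 26705034 to 28219696 in PMG and 19055655 to 19965631 in Res. Of these counts the 174 genes took 1.46% to 1.53% in TP, 0.837% to 0.905% in PMG and 1.37% to 1.44% in Res. The summed level of 7 microglia markers, in TMM-scaled CPM (counts relative to library size), was 39303 to 48121 in TP, 3466 to 5864 in PMG and 44973 to 50059 in Res, so the markers that define the labelled cell type were low in PMG. Summed markers of border-associated macrophages (6 genes) were at most 25.2 CPM in TP, 2884 to 3166 CPM in PMG and 52.0 to 108 CPM in Res, with Mrc1, Pf4 and F13a1 making up most of the PMG sum. Lyve1 and Cd163 of the same list went the other way. Lyve1 was at 0.288 to 0.541 CPM in PMG and 3.08 to 4.15 CPM in Res. Cd163 was at 0.491 to 1.58 CPM in PMG and 4.12 to 8.43 CPM in Res. For Cbr2 the PMG and Res ranges overlapped. Summed monocyte markers (7 genes) were 2.54 to 3.59 CPM in TP, 116 to 126 CPM in PMG and 6.95 to 11.1 CPM in Res. The part that cells of another type had in any difference below was not tested, and in bulk RNA fewer cells of a type and less RNA per cell cannot be told apart.

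Solute carriers move nutrients, ions and waste across the plasma membrane and across the membranes of mitochondria, lysosomes and the Golgi. Some run down a gradient, others couple their cargo to sodium or protons or swap it for another solute, and several need a partner protein to reach the membrane. In macrophages such carriers set how much lactate, glutamine, heme or nucleosides the cell takes up, releases or recycles from digested material. The genes were sorted by family into 16 substrate classes, the largest being 39 mitochondrial carriers, 23 amino acid carriers and 20 carriers of zinc, manganese and copper. The mitochondrial class includes Slc25a17, a peroxisomal carrier of the same family, and the sugar class includes Slc5a5, an iodide carrier of the sodium-glucose family. The monocarboxylate class includes Slc16a10, an aromatic amino acid carrier of the same family. Classes follow the family, so counts by class can include single genes with another cargo.

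Of the 174 genes, 131 had at least 1 promoter window in the RefSeq table (build GRCm38.p6), covering 250 bases before to 50 after a transcription start. Their windows were searched on both strands for 4 short motifs. TCACGTG, the E-box shared by many lysosomal genes, was in the windows of 16 of these 131 genes (12.2%), beside 4.29% of 27025 genes with a window and 7.01% of the 9544 with a window that reached the TPM floor. TGACNNNGC, the core of the antioxidant response element, was in 30 (22.9%) beside 13.99% of all. TGATGNAA, the element of C/EBP and ATF factors, was in 5 (3.82%) beside 4.51%, and the PU.1 motif GAGGAAGT was in 5 (3.82%) beside 3.69%. The share among genes at the TPM floor was counted for the E-box alone. The other motifs thus stand beside genes that were not selected on level, as the 131 were. Of the 16 genes with the E-box letters 4 were among those higher in TP than in Res (below) and 0 among those lower, beside 17 higher among all 131 genes with a window. Their windows are shown because these 4 are described in that comparison, 5′ to 3′ on the gene's strand, with the E-box letters in capitals. A match describes letters and not a bound site, and the start sites of the table need not be those used in these cells.
Slc13a3, chr2:165473148-165473447, minus strand: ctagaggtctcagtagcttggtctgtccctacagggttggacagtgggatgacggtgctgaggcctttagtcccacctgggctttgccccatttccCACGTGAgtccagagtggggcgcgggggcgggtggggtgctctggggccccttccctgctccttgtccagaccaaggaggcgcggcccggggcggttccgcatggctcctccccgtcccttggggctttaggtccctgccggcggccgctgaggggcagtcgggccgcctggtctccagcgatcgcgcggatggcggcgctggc
Slc25a13, chr6:6217124-6217423, minus strand: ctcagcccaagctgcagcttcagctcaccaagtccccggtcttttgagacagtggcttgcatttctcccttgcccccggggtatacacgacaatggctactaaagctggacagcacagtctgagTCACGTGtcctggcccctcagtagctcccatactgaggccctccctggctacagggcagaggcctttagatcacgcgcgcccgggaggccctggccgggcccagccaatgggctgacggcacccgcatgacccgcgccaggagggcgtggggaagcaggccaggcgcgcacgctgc
Slc31a2, chr4:62286179-62286478, plus strand: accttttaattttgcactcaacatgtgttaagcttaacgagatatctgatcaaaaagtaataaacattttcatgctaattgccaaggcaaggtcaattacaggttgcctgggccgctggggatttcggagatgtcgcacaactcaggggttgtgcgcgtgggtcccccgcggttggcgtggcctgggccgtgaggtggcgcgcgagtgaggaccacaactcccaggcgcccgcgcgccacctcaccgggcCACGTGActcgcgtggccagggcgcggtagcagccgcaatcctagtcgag
Slc25a36, chr9:97110992-97111291, minus strand: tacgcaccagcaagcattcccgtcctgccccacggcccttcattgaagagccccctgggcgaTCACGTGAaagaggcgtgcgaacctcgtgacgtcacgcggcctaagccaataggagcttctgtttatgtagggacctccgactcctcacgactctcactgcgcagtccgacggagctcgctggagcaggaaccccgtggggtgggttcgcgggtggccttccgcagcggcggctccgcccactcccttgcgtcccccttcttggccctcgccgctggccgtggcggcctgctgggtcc
The letters start at position -154 from the start site in Slc13a3, -126 in Slc25a13 and -188 in Slc25a36, and at position 1 in Slc31a2. The strand of a match varies, so they read TCACGTG or CACGTGA, and in Slc25a36 matches on both strands overlap.

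Between genes, levels can be compared in TPM, which is scaled for gene length. In TP cells the highest were Slc25a5 (634 ± 16.8 TPM), which encodes the ADP/ATP carrier of mitochondria, Slc3a2 (620.1 ± 26.9 TPM), the heavy chain shared by several amino acid exchangers, Slc7a8 (609.6 ± 49.98 TPM), a light chain that pairs with it, and Slc29a3 (498 ± 28.4 TPM), the nucleoside carrier of lysosomes (SD, n = 4). The same 4 genes led in Res, in the same order, at 768 ± 44.5, 613 ± 14.8, 608 ± 58.4 and 391.5 ± 29.2 TPM (n = 4). In PMG the order was Slc25a5 at 659 ± 61.2 TPM, the mitochondrial phosphate carrier Slc25a3 at 399.7 ± 47.4 TPM, the second ADP/ATP carrier Slc25a4 at 286 ± 3.31 TPM and the lactate carrier Slc16a3 at 274 ± 87.1 TPM (n = 3). Mitochondrial carriers took a mean of 23.3% of the summed TPM of the 174 genes in TP, 41.7% in PMG and 25.7% in Res. Amino acid carriers took 23.2% in TP, 14.5% in PMG and 23.3% in Res, and nucleoside carriers took 7.35%, 1.90% and 6.55% in TP, PMG and Res. The 174 genes together took a mean of 1.01% of all TPM in TP, 0.510% in PMG and 0.972% in Res. This difference depends on scaling, as the median of all genes shifts by -1.05 log2 units in TPM for PMG against Res (below). In TMM-scaled CPM the sum over the 174 genes was 13315 ± 338 in TP, 11681 ± 601 in PMG and 12626 ± 289 in Res. The summed TPM of mitochondrial carriers was 2335 to 2393 in TP, 2038 to 2169 in PMG and 2427 to 2546 in Res. Their larger share in PMG was thus not a larger sum in TPM. In TMM-scaled CPM the sum of mitochondrial carriers was larger in PMG, at 3066 to 3174 CPM. It was 1904 to 1988 CPM in TP and 2014 to 2050 CPM in Res. Whether mitochondrial carriers were higher in PMG as a sum therefore depends on the scale. Copies of Slc25a5 elsewhere in the genome may share its reads, so its level is uncertain to that extent.

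**Figure D1:**
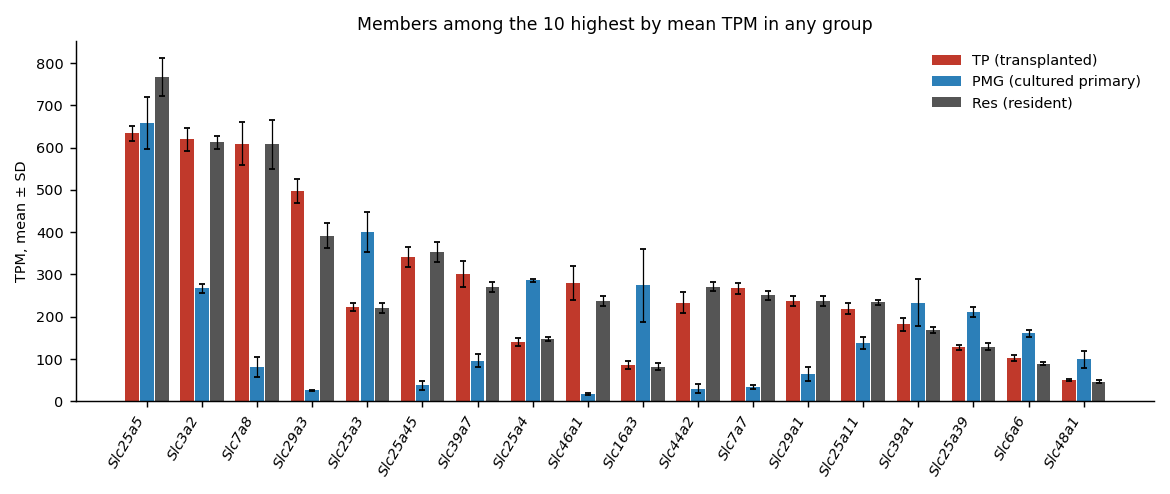
Mean TPM with SD for genes among the 10 highest in any group, in TP (n = 4), PMG (n = 3) and Res (n = 4). Slc7a8, Slc29a3, Slc25a45, Slc46a1, Slc44a2 and Slc7a7 were high in TP and Res and low in PMG, while Slc25a3, Slc25a4 and Slc16a3 were highest in PMG.

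Transplanted cells were compared with resident cells to see which carriers differ 3 months after transplantation. A few carriers were several-fold lower in TP, among them Slc5a10, Slc39a12, Slc25a27, Slc2a10 and Slc5a5, all of which were at or near 0 in PMG. Slc4a3, an anion exchanger, was 4.33-fold higher in TP at a low level, and the fatty acid carrier Slc27a3 and the dicarboxylate carrier Slc13a3 were 2.17-fold and 2.12-fold higher. The other higher genes differed by less than 2-fold, among them Slc39a4, Slc1a5 and Slc39a14. A gene was called at a p under 0.05 from edgeR's quasi-likelihood test, adjusted over every tested gene by the Benjamini-Hochberg method. By this rule 25 of the 168 tested genes were higher in TP (14.9%), where 7.17% of all 11929 tested genes were, and 7 were lower (4.17%), where 5.86% of all were. Over the 168 genes the log2 fold change had a median of 0.11, against 0.02 over all tested genes. At least a 2-fold difference was seen in 3 of the 25 and in 5 of the 7, and all 8 were genes that reached the TPM floor in 1 or 2 groups. Slc4a3 and Slc27a3 reached it in TP alone, and Slc2a10 and Slc5a5 in Res alone. These genes were selected through that group, so their values, gaps between groups and p-values below are descriptions. Among the 138 genes at the floor in all 3 groups 22 were higher (15.9%) and 1 was lower (0.725%), with 0 of them differing 2-fold. Of the 11311 tested genes at the floor in at least 1 group, 7.46% were higher and 5.83% lower. How many of all tested genes differed 2-fold was not counted. The count of higher genes was 14, 14, 16 and 13 without Res replicates 1, 2, 3 and 4, and 9 when all 3 groups shared 1 estimate of spread. The count of lower genes was 11 without TP replicate 2 and 12 with DESeq2. Of the 25 higher genes 11 were called whichever of the 8 libraries was left out, as were all 7 lower genes.

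Slc5a10 (chr11:61672782-61720817) encodes a sodium-coupled carrier of mannose and fructose, known from the kidney. Its level was 1.95, 2.39, 1.25 and 0.916 CPM in TP, 0 in each PMG library and 13.8, 14.3, 12.02 and 12.7 CPM in Res. TP and Res did not overlap, with a log2 fold change of -3.01 ± 0.24 (SE; edgeR adjusted p = 3.14e-05). In the annotation 16.6% of its exon bases lie over Fam83g on the other strand, which averaged 4.72 CPM in TP, 0.491 CPM in PMG and 4.84 CPM in Res. No strand is stated for the libraries, so reads of the shared part cannot be told apart.

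Slc39a12 (chr2:14388316-14494977), a zinc importer known from brain, stood at 8.52, 10.7, 6.22 and 9.64 CPM in TP, at 0, 0 and 0.0982 CPM in PMG and at 26.6, 32.9, 31.2 and 32.9 CPM in Res. Each TP library was thus below each Res library (log2 fold change -1.81 ± 0.15, edgeR adjusted p = 4.77e-05). Slc25a27 (chr17:43637739-43667214), which encodes an uncoupling protein of brain mitochondria, had 1.31, 2.39, 2.37 and 1.78 CPM in TP, 0.0960, 0 and 0.0982 CPM in PMG and 7.08, 7.88, 6.39 and 8.39 CPM in Res. Its log2 fold change in TP against Res was -1.91 ± 0.20 (edgeR adjusted p = 0.000191). The groups were again apart, with TP between PMG and Res.

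Slc2a10 (chr2:165503897-165519917), a facilitative glucose carrier, was low throughout, at 0.770, 0, 0.372 and 0.386 CPM in TP, 0 in each PMG library and 1.76, 2.70, 2.27 and 2.37 CPM in Res. Its log2 fold change in TP against Res was -2.54 ± 0.54 (edgeR adjusted p = 0.0116) and -3.13 without TP replicate 1. Slc5a5 (chr8:70882885-70892785), the iodide carrier of the thyroid, had 0.544, 0.909, 1.11 and 0.578 CPM in TP, 0 in PMG and 3.02, 2.61, 1.99 and 2.96 CPM in Res. Its log2 fold change was -1.74 ± 0.28 (edgeR adjusted p = 0.00263). These 5 genes made up all the lower calls of at least 2-fold. Summed border-associated macrophage markers were also lower in TP than in Res (above). So was the endothelial marker Pecam1, at 8.22 to 13.5 CPM in TP and 36.5 to 54.3 CPM in Res. The endothelial marker Cdh5 was higher in TP, at 2.22 to 3.66 CPM beside 1.03 to 1.99 CPM in Res. Flt1 was also higher in TP, at 1.20 to 2.31 CPM beside 0.0902 to 0.684 CPM in Res. Cldn5 and Tek were at or under 0.144 CPM in both groups. The part of other cell types in these differences was not tested.

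The other 2 lower genes differed by less. Slc12a2 (chr18:57878512-57946821), the sodium, potassium and chloride cotransporter that sets cell chloride, averaged 39.6 ± 8.38 CPM in TP and 62.2 ± 7.64 CPM in Res (log2 fold change -0.64 ± 0.15, edgeR adjusted p = 0.0163), and was not called in the fit of all 3 groups. Among the genes named by rule (below), 3 lost their TP against Res call in that fit, Slc12a2 among them. With a replicate block 2 of the genes named by rule lost it. Slc25a5 (chrX:36795597-36798808) averaged 312 ± 16.2 CPM in TP and 386 ± 18.7 CPM in Res (log2 fold change -0.30 ± 0.07, edgeR adjusted p = 0.0163).

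**Figure D2:**
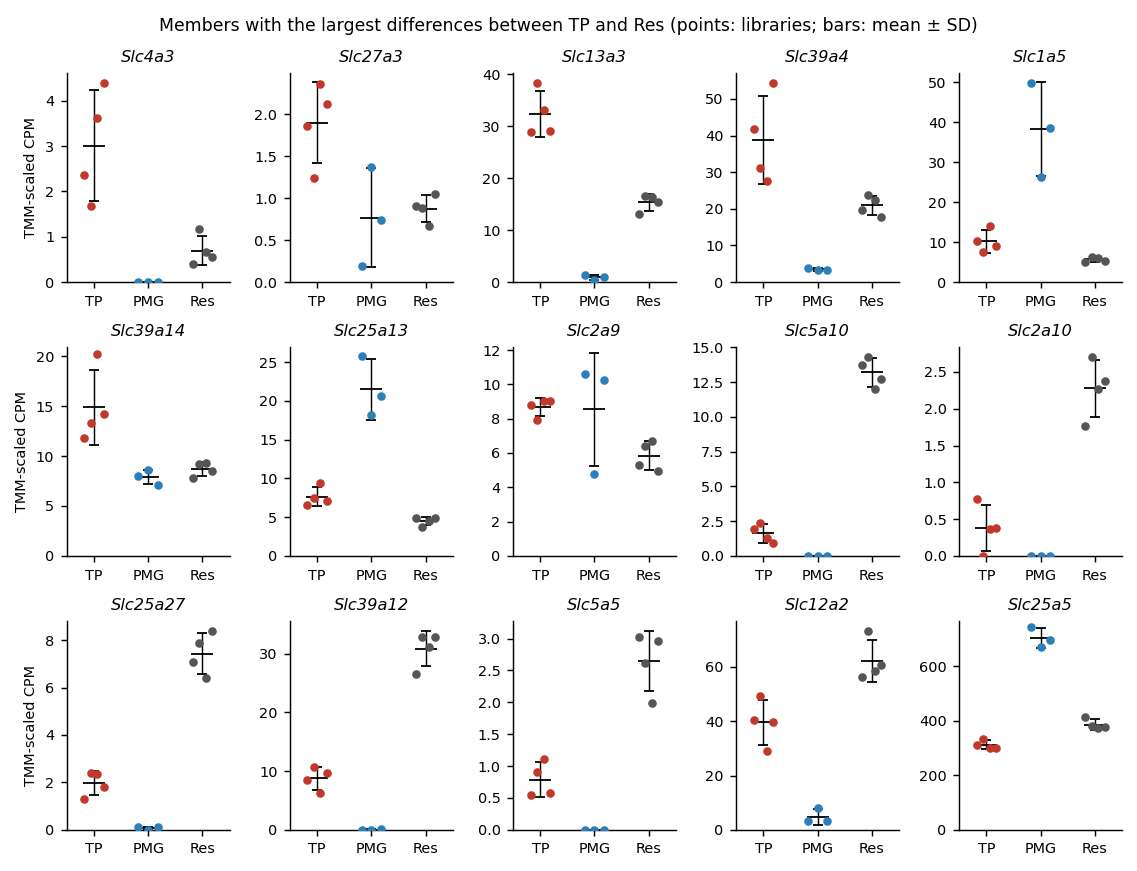
TMM-scaled CPM of 15 genes in each library (points) with mean and SD (bars), by group (TP, PMG, Res): the 8 called genes with the largest positive log2 fold change in TP against Res, then all 7 called lower. Slc5a10, Slc2a10, Slc25a27, Slc39a12 and Slc5a5 are at or near 0 in PMG, lie low in TP and are highest in Res.

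Slc4a3 (chr1:75546044-75559431), which exchanges chloride for bicarbonate, was the gene with the largest positive fold change in TP. It measured 2.36, 1.68, 3.62 and 4.39 CPM in TP, 0 in each PMG library and 0.406, 1.16, 0.663 and 0.547 CPM in Res, without overlap between TP and Res (log2 fold change 2.11 ± 0.39, edgeR adjusted p = 0.00545). Slc13a3 (chr2:165405295-165473197), the sodium-coupled carrier of succinate and other dicarboxylates whose promoter is shown above, measured 29.0, 38.3, 33.2 and 29.1 CPM in TP, 1.30, 0.393 and 0.982 CPM in PMG and 13.03, 16.5, 16.4 and 15.5 CPM in Res. Every TP library was above every Res library (log2 fold change 1.08 ± 0.11, edgeR adjusted p = 0.000191).

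Among carriers of zinc, manganese and copper, 6 of 20 were higher in TP, where 7.17% of all tested genes were, and 1, Slc39a12, was lower, where 5.86% of all were. Slc39a4 (chr15:76612383-76618506), an importer of zinc known from the gut, had 41.9, 31.1, 27.7 and 54.5 CPM in TP, 3.94, 3.24 and 3.19 CPM in PMG and 19.8, 23.7, 22.5 and 17.7 CPM in Res (TP against Res 0.90 ± 0.20 log2, edgeR adjusted p = 0.0135). Slc39a14 (chr14:70303467-70351452), which takes up zinc, manganese and iron, had 11.8, 13.3, 20.2 and 14.2 CPM in TP, 8.02, 8.55 and 7.12 CPM in PMG and 7.80, 9.23, 9.28 and 8.53 CPM in Res (0.78 ± 0.16 log2, edgeR adjusted p = 0.00988). For both genes the lowest TP library exceeded the highest Res library. The other higher calls in this class were Slc39a6, Slc30a6, Slc31a1 and Slc31a2, of which Slc30a6 and Slc31a1 each kept the call in 1 of 8 fits that left out a library. Slc31a2, a copper carrier with the E-box letters, averaged 129 ± 3.83 CPM in TP and 105 ± 6.13 CPM in Res (0.31 ± 0.06 log2, edgeR adjusted p = 0.00802), and its call was lost in the fit of all 3 groups.

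Slc1a5 and Slc25a13 were higher in TP than in Res and higher still in PMG. Slc1a5 (chr7:16781334-16798274), the main glutamine carrier of proliferating cells, stood at 10.2, 7.56, 14.1 and 8.92 CPM in TP, 49.8, 26.2 and 38.6 CPM in PMG and 5.05, 6.29, 6.01 and 5.24 CPM in Res (TP against Res 0.86 ± 0.18 log2, edgeR adjusted p = 0.0124). Slc25a13 (chr6:6041218-6217304), the mitochondrial exchanger of aspartate and glutamate, stood at 6.53, 7.51, 9.43 and 7.13 CPM in TP, 25.8, 18.1 and 20.6 CPM in PMG and 4.92, 3.77, 4.50 and 4.92 CPM in Res (0.76 ± 0.15 log2, edgeR adjusted p = 0.00888). TP lay above Res and below PMG for both genes, with no overlap between groups. Slc27a1, a fatty acid carrier, showed the same order at 37.5 ± 2.02 CPM in TP, 171 ± 25.9 CPM in PMG and 26.0 ± 1.53 CPM in Res (TP against Res 0.53 ± 0.07 log2, edgeR adjusted p = 0.00102).

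Several other higher calls lay close to the threshold and were lost in some of the 8 fits that left out a library. Slc27a3, another member of the fatty acid carrier family, had 1.86, 1.24, 2.37 and 2.12 CPM in TP and 0.902, 0.885, 0.663 and 1.05 CPM in Res (log2 fold change 1.12 ± 0.27, edgeR adjusted p = 0.0206). The call was lost in 5 of 8 fits that left out a library, with an edgeR adjusted p of 0.0530 without Res replicate 1, 0.0611 without Res replicate 2, 0.0721 without Res replicate 3, 0.0627 without TP replicate 3 and 0.0533 without TP replicate 4. Its log2 fold change in the 8 fits was 0.98 to 1.26. Slc2a9, the urate carrier, had 8.79, 7.90, 9.01 and 9.01 CPM in TP and 5.32, 6.38, 6.72 and 4.92 CPM in Res (0.58 ± 0.13 log2, edgeR adjusted p = 0.0154), with an adjusted p of 0.0511 without Res replicate 1 and 0.0520 without Res replicate 4. The 8 fits gave Slc2a9 a log2 fold change of 0.49 to 0.63. Slc29a3 (chr10:60712072-60752849) had 1179, 1132, 1024 and 1174 CPM in TP and 869, 904, 981 and 848 CPM in Res (0.33 ± 0.07 log2, edgeR adjusted p = 0.0163), with an adjusted p of 0.0511, 0.0545 and 0.0660 without Res replicates 1, 2 and 4. For Slc29a3 the log2 fold change was 0.29 to 0.36 in the 8 fits. All 3 genes kept a gap between TP and Res. Slc25a36, a mitochondrial carrier of pyrimidine nucleotides with the E-box letters, averaged 135 ± 0.652 CPM in TP and 115 ± 2.21 CPM in Res (0.24 ± 0.05 log2, edgeR adjusted p = 0.0133), with an adjusted p of 0.0663 and 0.0553 without Res replicates 3 and 4.

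Cultured cells were compared with resident cells, and the carriers differed between them far more widely. Some carriers with little signal in Res were higher in PMG, at levels well under those of the leading PMG carriers. Slc25a24 for mitochondrial ATP and phosphate had a mean of 9.90 TPM in PMG and 0.045 TPM in Res. Slc41a2 for magnesium had 3.88 and 0.0625 TPM, Slc52a3 for riboflavin 6.12 and 0.250 TPM, and Slc6a8 for creatine 8.09 and 1.08 TPM. Slc25a24, Slc41a2, Slc52a3, Slc4a11, Slc24a5 and Slc22a18 reached the TPM floor in PMG alone. They were thus selected through their PMG level, and their values and p-values here and below are descriptions. PMG had low levels of the glutamate carrier Slc1a3, the nucleoside carrier Slc29a3 and the folate and heme carrier Slc46a1. Of 174 tested genes 57 were higher in PMG (32.8%), where 37.9% of all 12406 tested genes were, while 79 were lower (45.4%), where 37.2% of all were (edgeR, adjusted p under 0.05). Over the 174 genes the log2 fold change had a median of -0.36, against -0.02 over all tested genes. Among the 138 genes at the floor in all 3 groups 49 were higher (35.5%) and 57 lower (41.3%), with a median of -0.13, where 38.7% and 37.4% of all genes at the floor were higher and lower. At least 2-fold differences made up 41 of the higher and 50 of the lower calls. The share of all tested genes at that fold was not counted, so these 2 counts have no comparison.

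On the TPM scale the median of all genes shifts by -1.05 log2 units for PMG against Res and by 1.04 for TP against PMG. A limma fit on log2(TPM + 1) called 28 of the genes higher and 122 lower in PMG than in Res. Of the calls across all genes 20.9% were then higher, where the counts gave 50.5%. Both fits called 28 genes higher and 78 lower, and 9 of the 171 genes in both fits were called in opposite directions. These were Slc25a11, Slc25a12, Slc25a44, Slc26a6, Slc30a4, Slc31a2, Slc35a4, Slc37a4 and Slc49a4, all higher from counts. Directions given below for log2 fold changes smaller than about 1 in PMG comparisons can depend on this scaling. By class, both fits called more lower than higher genes for amino acids, sugars, vitamins and heme, nucleosides, and Golgi and ER carriers. The same held for zinc, manganese and copper, for sodium, potassium, chloride, calcium and magnesium, and for protons and bicarbonate. Carriers of fatty acids, choline and bile acids had 3 higher and 4 lower from counts and 2 and 5 from TPM. Monocarboxylate and di- and tricarboxylate carriers had 3 and 5 from counts and 1 and 5 from TPM. In 3 classes the balance reversed. Mitochondrial carriers had 17 higher and 11 lower from counts and 8 higher and 25 lower from TPM. Carriers of peptides and organic ions had 4 higher and 3 lower from counts and 3 and 6 from TPM, and those of phosphate and sulfate had 3 and 1 from counts and 1 and 3 from TPM.

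**Figure D3:**
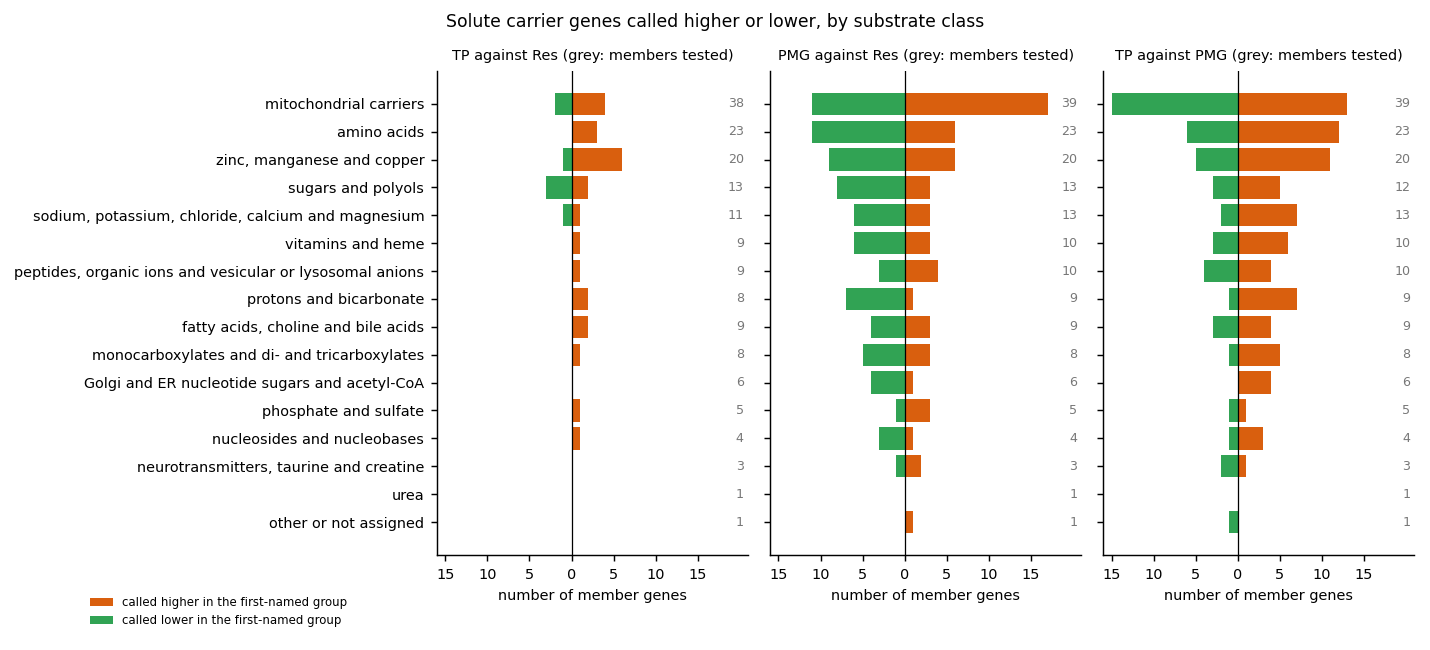
Number of genes called higher (right, orange) or lower (left, green) in the first-named group of each comparison, by substrate class, with the number tested in grey (edgeR, adjusted p under 0.05). For PMG against Res most classes lean to lower calls, with 7 of 9 proton and bicarbonate carriers (77.8%) and 8 of 13 sugar carriers (61.5%) lower. Of all tested genes 37.2% were lower.

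**Figure D4:**
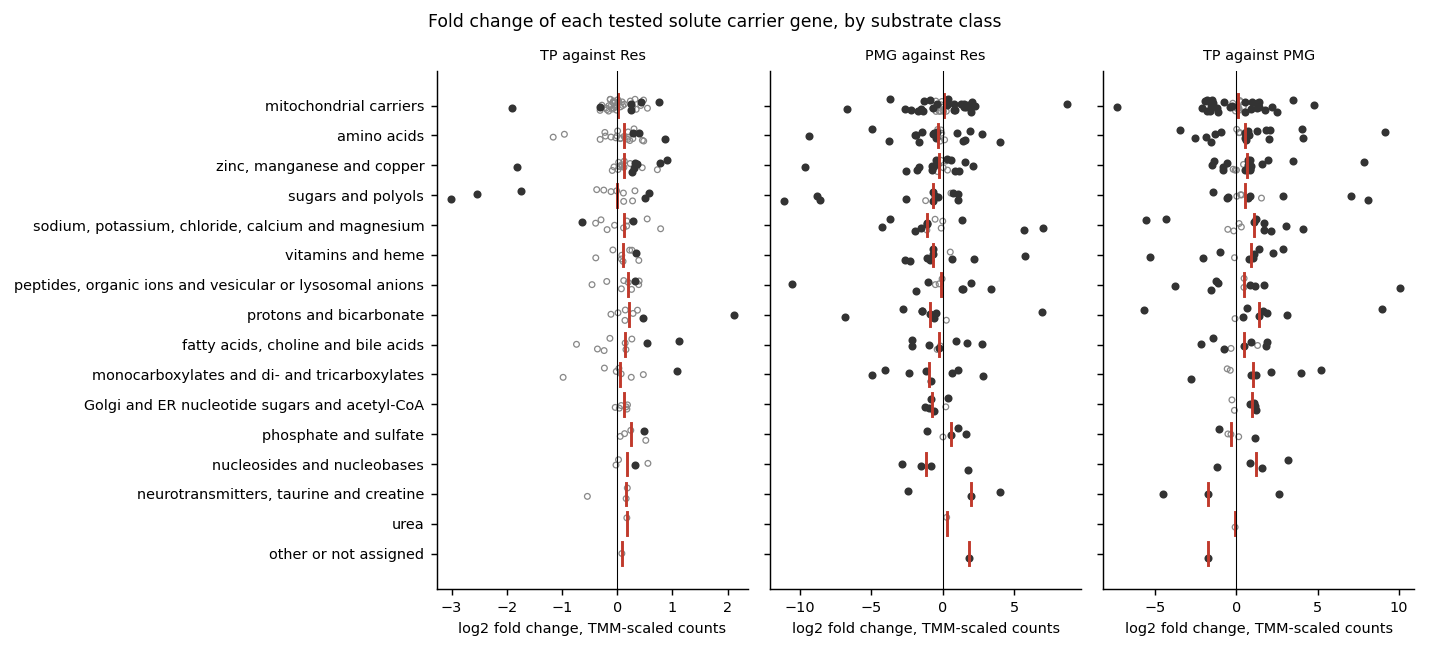
Log2 fold change of every tested gene from TMM-scaled counts, by class and comparison; filled points were called, open points were not, and the red line is the class median. The horizontal ranges differ between panels: TP against Res spans -3.01 to 2.11, the others several times that, and fitted values for genes at 0 in PMG are not bounds.

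Among amino acid carriers 6 of 23 were higher (26.1%) and 11 lower (47.8%) in PMG, where 37.9% and 37.2% of all tested genes were. Slc3a2, the heavy chain, was at 594, 601, 570.5 and 644 CPM in TP, 527, 511 and 536 CPM in PMG and 589, 593, 607 and 637 CPM in Res. Its light chains did not follow one direction. Slc7a8 had 971, 1050, 1074 and 1164 CPM in TP, 332, 220.4 and 339 CPM in PMG and 1085, 1050, 1202 and 1015 CPM in Res, and was lower in PMG than in Res (log2 fold change -1.85 ± 0.17, edgeR adjusted p = 9.81e-06). Slc7a7, which exports cationic amino acids, averaged 229 ± 14.1 CPM in TP, 55.7 ± 8.02 CPM in PMG and 219 ± 6.43 CPM in Res (PMG against Res -1.96 ± 0.12 log2, edgeR adjusted p = 6.62e-07). Slc7a5, the large neutral amino acid carrier of growing cells, had 11.3, 13.4, 19.2 and 19.5 CPM in TP, 17.2, 72.7 and 29.9 CPM in PMG and 14.97, 17.3, 9.89 and 12.1 CPM in Res. Its groups overlapped, and its fold change of 1.57 ± 0.42 log2 (edgeR adjusted p = 0.00765) was 0.78 without PMG replicate 2 and 0.24 in TPM, where it was not called.

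Slc1a3 (chr15:8634124-8710807), a glutamate carrier best known from astrocytes, had 217, 264, 138 and 152 CPM in TP, 0.720, 0.0492 and 0.245 CPM in PMG and 237, 261, 205 and 256 CPM in Res. PMG was far below Res (log2 fold change -9.42 ± 0.43, edgeR adjusted p = 1.17e-07; -10.62 without PMG replicate 1), and TP overlapped Res (-0.31 ± 0.19, edgeR adjusted p = 0.315). The astrocyte markers Gfap, Aqp4, Gja1 and Gjb6 were each under 1.4 CPM in every library, and the 6 summed were 3.94 to 4.40 CPM in TP, 40.7 to 80.8 CPM in PMG and 2.44 to 4.83 CPM in Res, most of the PMG sum being Aldoc and Aldh1l1. Slc36a2 (chr11:55158468-55185099), a proton-coupled carrier of glycine and proline, went the other way, with 11.6, 9.91, 2.79 and 6.65 CPM in TP, 94.6, 72.1 and 94.5 CPM in PMG and 4.60, 6.99, 5.02 and 5.74 CPM in Res (PMG against Res 3.98 ± 0.17 log2, edgeR adjusted p = 8.97e-08). Slc1a5 was also higher in PMG than in Res (2.78 ± 0.22 log2, edgeR adjusted p = 3.45e-06).

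Carriers of the lysosome and of its digestion products split. Slc29a3 had 125, 129.9 and 117 CPM in PMG and lay below every Res library (-2.84 ± 0.11 log2, edgeR adjusted p = 5.73e-08). Slc46a1 (chr11:78465701-78471945), a proton-coupled folate carrier that can also carry heme, had 236, 248.6, 174 and 248 CPM in TP, 30.3, 29.2 and 33.8 CPM in PMG and 185, 189, 207 and 198 CPM in Res (PMG against Res -2.63 ± 0.11 log2, edgeR adjusted p = 5.84e-08). Slc48a1 (chr15:97784365-97792692), which moves heme from the lysosome to the cytosol, had 56.2, 53.6, 49.2 and 54.1 CPM in TP, 243, 185 and 249.8 CPM in PMG and 46.8, 46.9, 55.7 and 52.8 CPM in Res (PMG against Res 2.18 ± 0.13 log2, edgeR adjusted p = 7.1e-07). The lysosomal peptide and histidine carriers also parted: Slc15a4 averaged 46.3 ± 1.40 CPM in PMG and 169.5 ± 13.1 CPM in Res (-1.85 ± 0.10 log2, edgeR adjusted p = 4.23e-07), and Slc15a3 averaged 191 ± 85.9 CPM in PMG and 48.8 ± 5.22 CPM in Res (1.99 ± 0.25 log2, edgeR adjusted p = 8.06e-05). Slc15a2 (chr16:36750161-36785158), the peptide carrier of the plasma membrane, had 2.13, 7.85, 7.52 and 8.29 CPM in TP, 0 in each PMG library and 5.28, 12.95, 7.24 and 10.1 CPM in Res. Measured against 3 counts over the PMG group, it was at least 131-fold higher in TP than in PMG, and at least 182-fold lower in PMG than in Res.

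**Figure D5:**
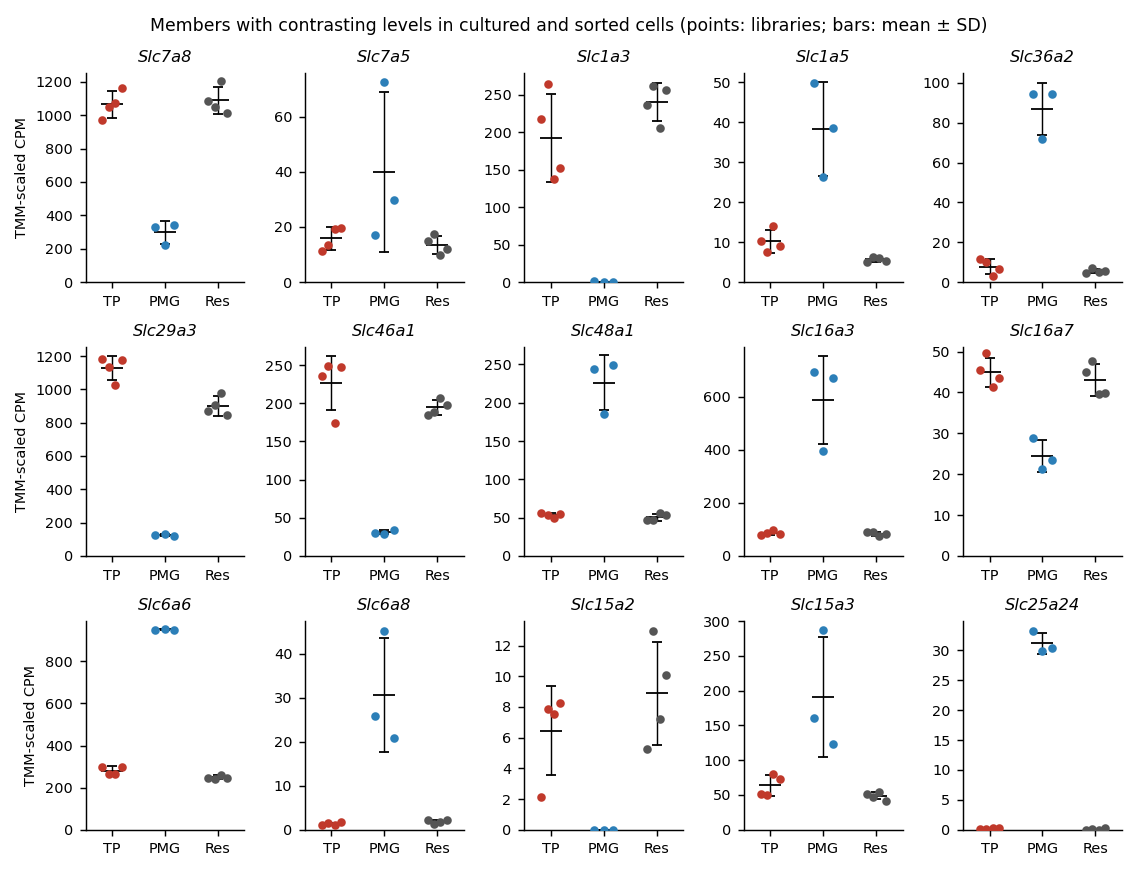
TMM-scaled CPM of 15 genes in each library (points) with mean and SD (bars), by group (TP, PMG, Res), picked after their values were seen to show carriers of related cargo side by side. Slc7a8, Slc1a3, Slc29a3, Slc46a1, Slc16a7 and Slc15a2 are lower in PMG, and Slc1a5, Slc36a2, Slc48a1, Slc16a3, Slc6a6, Slc6a8, Slc15a3 and Slc25a24 are higher.

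Among monocarboxylate and di- and tricarboxylate carriers 3 of 8 were higher in PMG (37.5%) and 5 lower (62.5%). Of all tested genes 37.9% were higher and 37.2% lower. Slc16a3 (chr11:120948484-120959000), the lactate exporter of glycolytic cells, had 78.0, 86.4, 97.5 and 81.7 CPM in TP, 695, 396 and 672 CPM in PMG and 90.3, 90.4, 74.4 and 82.6 CPM in Res. PMG exceeded Res without overlap (2.82 ± 0.20 log2, edgeR adjusted p = 1.7e-06), and TP and Res overlapped. Slc16a7, a carrier with high affinity for pyruvate and lactate, averaged 24.5 ± 3.87 CPM in PMG and 43.0 ± 3.997 CPM in Res (-0.79 ± 0.14 log2, edgeR adjusted p = 0.000634; -1.75 in TPM). Slc13a3 was lower in PMG than in Res as well (-4.08 ± 0.34 log2, edgeR adjusted p = 4.49e-06). The 3 carriers of neurotransmitters, taurine and creatine all differed. Slc6a6 (chr6:91684048-91759063), the taurine carrier, had 298, 265, 264 and 298 CPM in TP, 948, 956 and 951 CPM in PMG and 246, 242, 262 and 245 CPM in Res (PMG against Res 1.95 ± 0.10 log2, edgeR adjusted p = 1.71e-07). Slc6a8 (chrX:73673133-73682502), the creatine carrier, had 1.09, 1.48, 0.975 and 1.69 CPM in TP, 25.9, 45.3 and 20.8 CPM in PMG and 2.30, 1.40, 1.80 and 2.14 CPM in Res (4.02 ± 0.30 log2, edgeR adjusted p = 2.59e-06). Slc18a2, the monoamine carrier of vesicles, averaged 2.90 ± 0.866 CPM in PMG and 15.9 ± 2.47 CPM in Res (-2.42 ± 0.25 log2, edgeR adjusted p = 2.18e-05).

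Among mitochondrial carriers, Slc25a24, Slc25a4, Slc25a3 and Slc25a45 had the same direction from counts and in TPM, whereas Slc25a23 did not (PMG against Res 1.25 log2 from counts, -0.02 in TPM). Slc25a24 (chr3:109123149-109168409) had 0.0906, 0.191, 0.232 and 0.241 CPM in TP, 33.3, 29.9 and 30.3 CPM in PMG and 0, 0.0466, 0 and 0.228 CPM in Res, which separates PMG from both sorted groups. Its log2 fold change in PMG against Res was 8.72 ± 0.47 (edgeR adjusted p = 3.34e-07) and 10.51 without Res replicate 4. Slc25a4 averaged 317 ± 20.05 CPM in PMG and 76.5 ± 2.41 CPM in Res (2.07 ± 0.09 log2; 0.96 in TPM), and Slc25a3 averaged 518 ± 91.2 CPM in PMG and 134 ± 7.09 CPM in Res (1.97 ± 0.13 log2; 0.84 in TPM). The adjusted p was 1.11e-07 for Slc25a4 and 1.21e-06 for Slc25a3 (edgeR). Slc25a5 was higher in PMG by counts (0.89 ± 0.10 log2, edgeR adjusted p = 3.86e-05) and not called in TPM (-0.22, limma adjusted p = 0.0613), where it stood 0.82 above the shift of the median gene. Slc25a45 went down, at 76.2 ± 23.2 CPM in PMG and 369.8 ± 24.6 CPM in Res (-2.26 ± 0.21 log2, edgeR adjusted p = 1.07e-05). Slc25a27 was lower in PMG than in Res by 6.70 on the log2 scale.

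Of proton and bicarbonate carriers 7 of 9 fell in PMG and 1 rose, and of carriers of sodium, potassium, chloride, calcium and magnesium 6 of 13 fell (46.2%) and 3 rose, where 37.2% of all tested genes fell and 37.9% rose. Slc9a9 and Slc9a7, sodium-proton exchangers of endosomes and the Golgi, averaged 81.3 ± 9.38 and 8.39 ± 1.38 CPM in PMG, against 229 ± 22.8 and 59.2 ± 4.80 CPM in Res (log2 fold changes -1.48 ± 0.13 and -2.80 ± 0.15, edgeR adjusted p = 5.9e-06 and 2.74e-07). Slc12a9 averaged 67.7 ± 11.8 CPM in PMG and 262 ± 16.5 CPM in Res (-1.93 ± 0.14 log2, edgeR adjusted p = 2.31e-06), while Slc12a2 averaged 4.73 ± 2.80 CPM in PMG and 62.2 ± 7.64 CPM in Res (-3.70 ± 0.33 log2, edgeR adjusted p = 8.23e-06; -4.33 without PMG replicate 2). The 4 carriers that rose were nearly absent from the sorted groups or variable. Slc41a2 (chr10:83230848-83338037) had 0.408, 0.287, 0.557 and 0.193 CPM in TP, 20.4, 12.4 and 19.1 CPM in PMG and 0.135, 0.0466, 0.0946 and 0.228 CPM in Res (PMG against Res 7.05 ± 0.37 log2, edgeR adjusted p = 2.76e-07). Slc4a11 (chr2:130684107-130697519), of the bicarbonate carrier family, had 6.82, 6.78 and 5.74 CPM in PMG and at most 0.145 CPM in any sorted library (6.97 ± 0.57 log2 against Res, edgeR adjusted p = 4.1e-06; 8.24 without Res replicate 2). Slc24a5 (chr2:125068127-125088677), the potassium-dependent sodium-calcium exchanger of melanosomes, had 6.38, 6.10 and 4.27 CPM in PMG and at most 0.770 CPM in a sorted library (5.69 ± 0.65 log2 against Res, edgeR adjusted p = 3.93e-05; 6.37 without Res replicate 2). In the annotation 39.5% of its exon bases lie over Myef2 on the other strand, which averaged 22.03 CPM in TP, 15.2 CPM in PMG and 18.8 CPM in Res. The fourth, Slc12a7, averaged 90.9 ± 34.1 CPM in PMG and 36.6 ± 6.43 CPM in Res.

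In the remaining classes, Slc52a3 (chr2:151996511-152009258), a riboflavin carrier, had 0.589, 0.144, 0.0929 and 0.578 CPM in TP, 18.2, 8.01 and 16.2 CPM in PMG and 0.0451, 0.186, 0.5679 and 0.228 CPM in Res (PMG against Res 5.78 ± 0.53 log2, edgeR adjusted p = 8.87e-06; 6.47 without Res replicate 3). Slc22a18, an organic ion carrier from an imprinted region, averaged 4.62 ± 1.62 CPM in PMG and 0.449 ± 0.238 CPM in Res (3.36 ± 0.43 log2, edgeR adjusted p = 8.62e-05). Slc44a2, a choline carrier-like protein, averaged 93.7 ± 30.7 CPM in PMG and 416 ± 24.8 CPM in Res (-2.13 ± 0.23 log2, edgeR adjusted p = 2.33e-05), and Slc26a2, the sulfate carrier, averaged 26.7 ± 2.67 CPM in PMG and 56.9 ± 3.02 CPM in Res (-1.07 ± 0.11 log2, edgeR adjusted p = 2.1e-05). Slc66a2, not assigned to a cargo here, averaged 36.6 ± 4.12 CPM in PMG and 10.4 ± 0.0874 CPM in Res (1.84 ± 0.12 log2, edgeR adjusted p = 1.16e-06). Slc39a7, the zinc carrier of the ER that led the metal class in TPM, averaged 201 ± 28.6 CPM in PMG and 272 ± 11.2 CPM in Res (-0.41 ± 0.12 log2, edgeR adjusted p = 0.0120), and 80.7% of its exon bases lie over a second transcript of the same strand in the annotation. Slc50a1, a sugar carrier, was lower in PMG by 0.36 ± 0.11 log2 (edgeR adjusted p = 0.0143). Slc35a4, of the nucleotide sugar family, was higher in PMG from counts (0.33 ± 0.13 log2, edgeR adjusted p = 0.0419) and lower in TPM (-0.76), and lost its call on leaving out either PMG replicate 1 or 3 or any Res library. Slc14a1, the urea carrier, passed in no comparison, at 3.97 ± 2.57 CPM in TP, 4.20 ± 1.17 CPM in PMG and 3.53 ± 0.513 CPM in Res.

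Of genes at 0 in every PMG library, Slc5a10 was at least 271-fold lower, Slc5a5 at least 54.4-fold lower, Slc2a10 at least 46.6-fold lower and Slc4a3 at least 14.2-fold lower in PMG than in Res, each against 3 counts over the PMG group. Slc39a12 had 2 counts in PMG, and the ratio of Res to PMG was 950.3 with an exact Poisson interval of 263 to 7847, which covers counting error only.

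Transplanted cells were last compared with cultured cells. This comparison shares its PMG libraries with the one above, so each is given with its own values. Slc29a3, Slc46a1, Slc7a8, Slc1a3 and Slc13a3 were higher in TP, and Slc25a24, Slc6a8, Slc36a2, Slc16a3 and Slc6a6 were lower. Of 173 tested genes 83 were higher in TP (48.0%), where 36.9% of all 12284 tested genes were, and 48 were lower (27.7%), where 35.5% of all were (edgeR, adjusted p under 0.05). Over the 173 genes the log2 fold change had a median of 0.47, against 0.05 over all tested genes. Among the 138 genes at the floor in all 3 groups 61 were higher (44.2%) and 40 lower (29.0%), with a median of 0.29, where 37.4% and 36.0% of all genes at the floor were higher and lower. In TPM 120 genes were higher and 23 lower, and 80.3% of all calls were higher, where counts gave 51.0%. Among amino acid carriers 12 of 23 were higher in TP and 6 lower, among metal carriers 11 of 20 were higher and 5 lower, and among mitochondrial carriers 13 of 39 were higher and 15 lower (25 and 7 in TPM).

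In TP against PMG Slc29a3 had a log2 fold change of 3.19 ± 0.13 (edgeR adjusted p = 2.98e-08), Slc46a1 of 2.87 ± 0.16 (edgeR adjusted p = 2.86e-07), Slc7a8 of 1.85 ± 0.17 (edgeR adjusted p = 6.94e-06) and Slc1a3 of 9.12 ± 0.51 (edgeR adjusted p = 2.48e-07; 10.30 without PMG replicate 1). Slc13a3 was higher by 5.18 ± 0.33 log2 (edgeR adjusted p = 5.63e-07). Slc4a3 was at least 61.6-fold higher and Slc5a10 at least 33.2-fold higher in TP than in PMG, where neither had a count. The ratio of TP to PMG for Slc39a12 was 269 with an exact Poisson interval of 74.6 to 2224. On the lower side stood Slc25a24 (-7.32 ± 0.26 log2, edgeR adjusted p = 1.48e-08), Slc6a8 (-4.54 ± 0.32 log2, edgeR adjusted p = 1.14e-06), Slc36a2 (-3.48 ± 0.38 log2, edgeR adjusted p = 2.11e-05), Slc16a3 (-2.77 ± 0.20 log2, edgeR adjusted p = 1.11e-06) and Slc6a6 (-1.75 ± 0.11 log2, edgeR adjusted p = 4.83e-07). Slc24a5 was lower by 4.35 ± 0.82 log2, and its value was -5.79 without TP replicate 1.

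Genes of the superfamily named in other ways, and partner proteins of carriers, were listed apart. In PMG against Res 12 of 52 such genes were higher, 12 lower, 12 not called and 16 not tested. Of all tested genes 37.9% were higher and 37.2% lower in that comparison. In TP against Res 6 of the 52 were higher, 1 lower, 30 not called and 15 not tested. Of all tested genes 7.17% were higher and 5.86% lower there. Bsg, the chaperone that brings Slc16a1 and Slc16a3 to the membrane, averaged 380.2 ± 18.3 CPM in TP, 1148 ± 145 CPM in PMG and 423 ± 32.2 CPM in Res (PMG against Res 1.46 ± 0.12 log2, edgeR adjusted p = 4.28e-06). Emb, a related chaperone, averaged 0.982 CPM in TP, 115 CPM in PMG and 0.483 CPM in Res (7.89 ± 0.47 log2, edgeR adjusted p = 6.1e-07). Mpc1 and Mpc2, the subunits of the mitochondrial pyruvate carrier, were higher in PMG than in Res by 0.57 ± 0.10 and 1.44 ± 0.14 log2 (edgeR adjusted p = 0.00052 and 1.53e-05; the TPM shift of the median gene was -1.05). The organic anion carriers Slco2b1 and Slco4a1 were lower in PMG than in Res. Slco2b1 was at 2183 CPM in TP, 197 CPM in PMG and 2354 CPM in Res, and Slco4a1 was at 181 CPM in TP, 1.57 CPM in PMG and 144 CPM in Res. Spns2, the sphingosine-1-phosphate exporter, was higher in TP than in Res (26.4 ± 5.1 and 17.2 ± 1.1 CPM, 0.62 ± 0.12 log2, edgeR adjusted p = 0.0086), and Slc35e3, of the nucleotide sugar family, was lower (9.93 ± 2.0 and 20.9 ± 1.2 CPM, -1.07 ± 0.13 log2, edgeR adjusted p = 0.000572).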

How the data were processed

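Expected counts and TPM were deposited by the authors as columns of 1 table per the file headers. The counts are estimates per gene, not scaled; TPM is scaled for gene length and library. FPKM columns were not used. HISAT, Bowtie2 and the build GRCm38.p6 stand in the submitters' processing notes. Their versions and the counter are not stated there. RNA was taken with TRIzol and 1 ng made into Smart-Seq libraries, per the labels' protocols. Symbols and positions came from a RefSeq table of that build, which matched 16845 of 16894 identifiers. Overlaps between exons came from the GENCODE annotation of the same build.

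Counts were rounded, and every comparison had its own fit of both its groups in edgeR 4.0.16 under R 4.3.3 (TMM scaling, expression filter, quasi-likelihood test, Benjamini-Hochberg adjustment over all genes tested, called under 0.05). Every adjusted p comes from this fit unless limma 3.58.1 (on log2 of TPM with a pseudocount of 1) is named. CPM is TMM-scaled over all 11 libraries, given as mean ± SD, and fold changes with SE. Levels of 0 allow up to 3 counts; libraries carry no molecular identifiers, so bounds and exact Poisson intervals cover counting error only. Alternatives were other scaling, DESeq2 1.42.0, no filter, TPM, 1 fit of all groups, a replicate block and leaving out each library. The script was tested on simulated data. No 2 libraries of a group were alike within sampling noise.

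Named genes were, per comparison, the 8 called, non-overlapping genes with the largest change each way, and the highest in TPM of each class. Slc7a5, Slc7a7, Slc7a8, Slc9a7, Slc12a7, Slc15a3, Slc16a7, Slc18a2, Slc25a3, Slc25a4, Slc25a23, Slc25a36, Slc25a45, Slc27a1, Slc30a6, Slc31a1, Slc31a2, Slc39a6, Slc48a1 and the genes called oppositely in TPM were added after their values were seen. The genes, classes and lists were chosen with earlier results of these data known. Genes with close copies, such as Slc25a5 and the neighbours Slc22a4, Slc22a5 and Slc22a21, may share reads.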

Additional observations from a re-analysis of the deposited data

Results flagged for a closer look

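Among the named genes, 80 groups of 4 libraries were looked at for a library far from the other 3, of which chance alone would mark about 1 in 20, and 5 were marked. In TP replicate 1 Slc15a2 was at 2.13 CPM, with 7.52 to 8.29 CPM in the other TP libraries, and Slc26a2 was at 52.5 CPM, with 60.5 to 61.1 CPM in the others. In TP replicate 3 Slc46a1 was at 174 CPM, with 236 to 248.6 CPM in the others, and without it Slc46a1 was called higher in TP than in Res (log2 fold change 0.32, edgeR adjusted p = 0.0143; 0.22 and 0.223 with it). In Res replicate 1 Slc25a5 was at 414 CPM, with 374 to 380.3 CPM in the other Res libraries. In Res replicate 3 Slc26a2 was at 61.4 CPM, with 55.2 to 55.5 CPM in the others.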

How the results depend on the processing

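The count of genes higher in TP than in Res was 25, 9 with all 3 groups in 1 fit and 13 to 24 on leaving out a library; the count lower was 7, 12 with DESeq2 and 7 to 11 on leaving out a library. In TPM 28 genes were higher and 122 lower in PMG than in Res, with 57 and 79 from counts, and 23 were lower in TP than in PMG, with 48 from counts. Leaving out a library gave 48 to 58 and 77 to 86 genes for PMG against Res, and 82 to 88 and 43 to 48 for TP against PMG. With TPM the sign turned in PMG against Res for Slc14a1 (-0.53), Slc25a5 (-0.22), Slc2a9 (-0.64) and Slc35a4 (-0.76), and in TP against PMG for Slc35a4 (0.82), beside a shift of the median gene of -1.05 and 1.04. With a replicate block the calls were 19 higher and 9 lower (TP against Res), 48 and 74 (PMG against Res) and 81 and 43 (TP against PMG); same-numbered libraries deviated together with correlations of -0.08 to 0.14, so the numbers are not taken as pairs. The causes were not tested. Genes near 0 CPM are limited by depth.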

Other observations

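Carriers differed in how evenly they were measured within a group. Among genes at a mean of 10 CPM or more, the median coefficient of variation was 8.80% over 124 genes in TP, 17.6% over 121 genes in PMG and 6.95% over 121 genes in Res. The most variable was Slc1a4, a carrier of neutral amino acids, in TP (58.2%) and Res (33.2%), and Slc7a5 in PMG (72.8%). Of 14 genes at the TPM floor in a single group, Slc4a3, Slc27a3 and Slc5a11 reached it in TP, Slc22a18, Slc24a5, Slc25a24, Slc41a2, Slc4a11 and Slc52a3 in PMG, and Slc10a6, Slc16a9, Slc2a10, Slc5a5 and Slc7a14 in Res.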
